A study of Mus musculus with 4 samples.

Results

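T cells that carry 2 productive alpha chains beside a single beta chain were described in tumor-infiltrating lymphocytes of mice. The members were chosen from the assembled receptor sequences (contigs) of 2 receptor libraries: among cells with exactly 1 productive beta contig, those with 2 productive alpha contigs, called 2-alpha cells here, were set beside those with 1, called 1-alpha cells. There were 1554 2-alpha cells (745 in the library labelled WT and 809 in the library labelled VISTA-KO) and 12048 1-alpha cells among 20422 cell barcodes in all.

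The lymphocytes came from B16bl6 melanoma, a transplantable C57BL/6 mouse tumor line. The methods give 50000 cells injected intradermally into C57BL/6 mice of 6 to 8 weeks. They give this for tumors studied for VISTA expression and do not repeat it for the mice sequenced here. All mice carried Vsir alleles flanked by loxP sites (Vsir fl/fl), where Vsir encodes the checkpoint protein VISTA. The VISTA-KO mice also carried CD4-Cre, in which the Cd4 promoter drives Cre recombinase while T cells develop in the thymus, so that the CD8+ lineage is included. WT mice were littermates without Cre, and the methods call the mice of both genotypes matched for age and sex. Both genotypes received a TRP2 peptide vaccine with CpG and R848 on day 3 and 100 µg of anti-CTLA-4 antibody on days 4 and 8, so no untreated sample was compared. Tumors were taken on day 18 after treatment and pooled per genotype, from 5 to 6 mice by the methods or 6 to 8 tumors by the figure legend. T cells of both lineages were enriched and sorted by CD4 and CD8 staining, and each genotype gave 1 gene expression library and 1 receptor library from the same cells. A difference between the genotypes therefore had no replicate check, and all intervals below are exact 95% binomial (Clopper-Pearson) intervals, which cover counting error only.

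An alpha chain is made in the thymus by joining a V segment to a J segment in the Tcra locus. Unlike the beta locus, where a productive joining on one chromosome normally stops the other, the alpha locus rearranges on both chromosomes, and each can go through several rounds in which a V segment farther upstream is joined to a J segment farther downstream. Rearrangement ends when a receptor passes positive selection, and a cell can leave the thymus with a productive alpha chain on each chromosome. Both chains can then pair with the same beta chain, although they need not reach the surface equally.

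The largest clones with 2 alpha chains are shown by their junctions, the stretch from the conserved cysteine of the V segment to the conserved position of the J segment that closes it, since a pair of alpha junctions found again beside the same beta junction is what sets these clones apart. A clone was defined by its beta V segment and beta junction. The lines give the 3 largest of each library, 5′ to 3′, as the contigs hold them. Capitals mark the stretch from the first to the last base at which the 2 alpha junctions of a clone differ when they are read from either end, beta junctions are in lower case, and alpha A is the chain with the higher median UMI count (unique molecular identifiers, 1 per captured transcript) over the cells that carry it. Mouse alpha V segments exist in near-identical copies, so the copy named (the D and N forms) is uncertain.
Library labelled WT, clone of 65 cells, beta (TRBV13-3, TRBJ2-1): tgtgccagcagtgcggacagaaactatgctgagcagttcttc
Library labelled WT, clone of 65 cells, alpha A (TRAV6-6, TRAJ13): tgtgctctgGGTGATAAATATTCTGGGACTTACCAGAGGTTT
Library labelled WT, clone of 65 cells, alpha B (TRAV9N-4, TRAJ26): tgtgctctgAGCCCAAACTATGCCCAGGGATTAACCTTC
Library labelled WT, clone of 43 cells, beta (TRBV2, TRBJ2-4): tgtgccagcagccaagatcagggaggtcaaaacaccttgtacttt
Library labelled WT, clone of 43 cells, alpha A (TRAV7D-5, TRAJ24): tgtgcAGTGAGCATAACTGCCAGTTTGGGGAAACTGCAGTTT
Library labelled WT, clone of 43 cells, alpha B (TRAV9-1, TRAJ26): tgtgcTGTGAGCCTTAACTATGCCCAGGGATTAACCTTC
Library labelled WT, clone of 40 cells, beta (TRBV5, TRBJ2-3): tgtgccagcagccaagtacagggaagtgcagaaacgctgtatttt
Library labelled WT, clone of 40 cells, alpha A (TRAV7D-2, TRAJ15): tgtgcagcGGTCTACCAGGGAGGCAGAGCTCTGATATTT
Library labelled WT, clone of 40 cells, alpha B (TRAV14D-3-DV8, TRAJ7): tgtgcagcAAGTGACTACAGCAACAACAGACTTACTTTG
Library labelled VISTA-KO, clone of 50 cells, beta (TRBV23, TRBJ1-6): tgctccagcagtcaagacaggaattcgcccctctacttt
Library labelled VISTA-KO, clone of 50 cells, alpha A (TRAV9-4, TRAJ52): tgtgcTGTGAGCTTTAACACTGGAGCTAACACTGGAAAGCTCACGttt
Library labelled VISTA-KO, clone of 50 cells, alpha B (TRAV7-4, TRAJ45): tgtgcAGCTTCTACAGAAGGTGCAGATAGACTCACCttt
Library labelled VISTA-KO, clone of 34 cells, beta (TRBV3, TRBJ2-2): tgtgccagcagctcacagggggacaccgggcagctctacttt
Library labelled VISTA-KO, clone of 34 cells, alpha A (TRAV14D-1, TRAJ52): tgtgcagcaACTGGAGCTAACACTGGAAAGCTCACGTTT
Library labelled VISTA-KO, clone of 34 cells, alpha B (TRAV14N-3, TRAJ44): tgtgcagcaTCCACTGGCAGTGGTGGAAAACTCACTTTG
Library labelled VISTA-KO, clone of 21 cells, beta (TRBV31, TRBJ2-4): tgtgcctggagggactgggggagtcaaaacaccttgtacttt
Library labelled VISTA-KO, clone of 21 cells, alpha A (TRAV7-5, TRAJ23): tgtgcAGTGAGCATGGGGAAGCTTAtcttt
Library labelled VISTA-KO, clone of 21 cells, alpha B (TRAV12-2, TRAJ31): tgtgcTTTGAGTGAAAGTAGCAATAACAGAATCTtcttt
In all 6 clones the 2 alpha junctions used different J segments. In the clone of 34 cells of the library labelled VISTA-KO, both alpha V segments were of the TRAV14 family.

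The 2 libraries were of like size, with 72098984 UMIs over 10337 barcodes in the library labelled WT and 59916814 over 10085 in the library labelled VISTA-KO. Contigs were found in 75.3% and 84.3% of barcodes. The receptor libraries were read to different depths, at 259 and 155 reads per contig UMI. Vsir itself stood at 105 CPM (UMI counts scaled to a common depth) in 2-alpha and 116 CPM in 1-alpha cells of the library labelled WT, and at 119 and 112 CPM in the library labelled VISTA-KO. The transcript was thus not lower in the library labelled VISTA-KO, and since the files do not say where in the gene its UMIs lay, the level does not check the deletion. Of the cell barcodes, 145 occurred in both libraries, among them 61 with 1 beta and 1 or 2 alpha chains in both. Only 17 beta chains and 3 beta chains with the same leading alpha chain were found in both libraries, and 0 combinations of a beta chain with both its alpha chains.

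The deposited contigs held at most 2 alpha and 2 beta chains per cell, all productive, so a cell with more chains would not appear as such. Of the 1-beta cells with at least 1 alpha chain, 11.2% (10.5 to 12.0) in the library labelled WT and 11.6% (10.9 to 12.4) in the library labelled VISTA-KO had 2 alpha chains. A further 494 and 713 1-beta cells had no alpha chain. A second beta chain was less frequent, at 5.37% (4.87 to 5.90) and 6.78% (6.25 to 7.35) of cells with a beta chain. After the filters on gene number and mitochondrial UMIs, 745 and 808 2-alpha cells and 5890 and 6140 1-alpha cells were kept.

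The 2-alpha cells were T cells by their markers. At least 1 UMI of Cd3d, Cd3e or Cd3g, the signalling subunits of the receptor complex, was found in 99.6% to 100% of 2-alpha cells in every gate and library. Gates were set on transcripts, with Cd8a or Cd8b1 but no Cd4 for CD8 cells, Cd4 but no Foxp3 for conventional CD4 cells, and Cd4 with Foxp3, the lineage factor of regulatory T cells, for regulatory cells. A barcode with UMIs of both Cd4 and Cd8a or Cd8b1 thus fell in the conventional CD4 or regulatory gate, never in the CD8 gate. Barcodes that hold cells of both lineages are therefore not spread evenly over the gates. Cells outside all gates numbered 919 and 766, of which 15.2% and 9.79% had 2 alpha chains.

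The share of 2-alpha cells was lowest in the CD8 gate and highest in the regulatory gate in both libraries. In the library labelled WT it was 7.99% in the CD8 gate (320 of 4003 cells, 7.17 to 8.88), 14.5% in the conventional CD4 gate (154 of 1062, 12.4 to 16.8) and 20.1% in the regulatory gate (131 of 651, 17.1 to 23.4). The 3 intervals did not overlap. In the library labelled VISTA-KO it was 10.7% in the CD8 gate (348 of 3239, 9.70 to 11.9), 11.4% in the conventional CD4 gate (246 of 2166, 10.1 to 12.8) and 17.9% in the regulatory gate (139 of 777, 15.3 to 20.8). Here the regulatory gate alone stood apart, and the CD8 and conventional CD4 intervals overlapped. Cells of a clone share their receptor, so the cells counted were not independent.

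**Figure D1:**
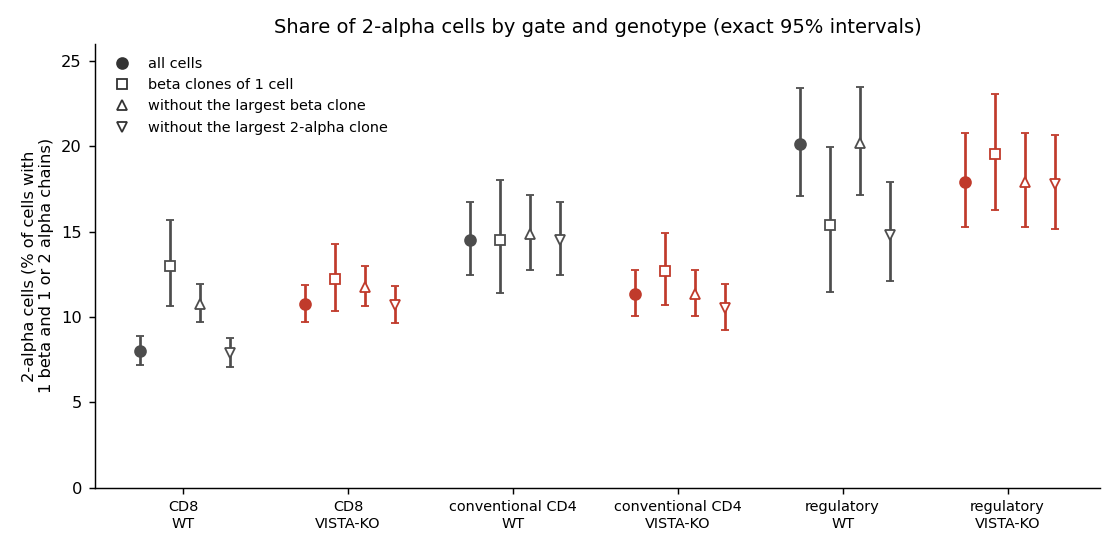
Share of 2-alpha cells (vertical axis, percent of cells with 1 beta and 1 or 2 alpha chains) by gate and library, for all cells (filled circles), beta clones of 1 cell (squares), without the largest beta clone of each library (upward triangles) and without the largest 2-alpha clone of each library (downward triangles), with exact 95% intervals. The CD8 share of the library labelled WT goes from 7.99% to 10.8% without the largest beta clone, and its regulatory share from 20.1% to 14.8% without the largest 2-alpha clone.

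Counting each clone once narrowed the gap between CD8 and conventional CD4 cells in the library labelled WT and turned its direction in the library labelled VISTA-KO. Clones of 1 cell held 18.2% of CD8 cells in the library labelled WT and 33.6% in the library labelled VISTA-KO, but 45.9% and 70.5% of regulatory cells. With each clone counted once at its mean share, 12.4% and 13.1% of CD8 clones, 15.0% and 12.1% of conventional CD4 clones and 17.6% and 19.3% of regulatory clones were 2-alpha in the libraries labelled WT and VISTA-KO. Among clones of 1 cell the CD8 share was 13.0% (10.7 to 15.7) and 12.2% (10.3 to 14.3), and the conventional CD4 share 14.5% (11.4 to 18.05) and 12.7% (10.7 to 15.0), with overlapping intervals. The regulatory share among clones of 1 cell was 15.4% (11.5 to 19.98) in the library labelled WT, overlapping the other gates, and 19.5% (16.3 to 23.1) in the library labelled VISTA-KO, above them.

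Single large clones moved these shares. The largest beta clone of the library labelled WT, with 1063 cells and TRBV12-2, had 0 2-alpha cells, and without it the CD8 share of that library was 10.8% (9.68 to 11.9), against 11.8% without the largest clone in the library labelled VISTA-KO. The largest 2-alpha clone of the library labelled WT (the clone of 65 cells above) gave 41 of the 131 regulatory 2-alpha cells. Without it the regulatory share was 14.8% (12.1 to 17.9), close to the conventional CD4 share of 14.5%, with overlapping intervals. The size of the gap between these gates in that library thus depended on 1 clone. That clone was picked for its 2 alpha chains and had 44 regulatory cells, 41 of them 2-alpha, so a lower share without it was fixed by the choice. It held 0 conventional CD4 cells, so the conventional CD4 gate kept all its 2-alpha clones. In the library labelled VISTA-KO the regulatory share was 17.8% (15.2 to 20.7) without the largest 2-alpha clone, which held 2 regulatory cells.

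In each cell the alpha chain with more UMIs was taken as the first, so by this choice the second could not exceed it. The second chain had a median of 4 to 7 UMIs by gate and library, with a median ratio to the first chain of 0.6 to 0.667. In the CD8 gate of the library labelled WT, 2-alpha cells had a median of 17 alpha UMIs in all against 7 in 1-alpha cells, with 13 beta UMIs in both. In the regulatory gate of that library the medians were 19 and 10 alpha UMIs and 12 and 10 beta UMIs. These alpha totals add 2 contigs in 2-alpha cells and take 1 in 1-alpha cells. A higher total is thus in part built in by the choice of the classes. The leading alpha chain alone had medians of 10 and 7 UMIs in the CD8 gate and 11 and 10 in the regulatory gate of that library. Beta UMIs differed little. With the second chain required to have 3 or more UMIs, the shares were 6.94% and 9.54% in the CD8 gate, 12.0% and 9.28% in the conventional CD4 gate and 18.3% and 16.2% in the regulatory gate.

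With the 3 gates together, shares varied with the depth of the gene expression library, in the library labelled WT more than with the beta UMI count. Over 5 bins of beta UMIs, the share in the 3 gates together ran from 10.0% to 11.2% in the library labelled WT and from 10.5% to 13.9% in the library labelled VISTA-KO. The gates differed in this. Between the lowest and highest of these bins the regulatory share went from 16.0% to 21.9% in the library labelled WT. In the library labelled VISTA-KO it went from 13.4% to 28.6%. The CD8 share went from 9.06% to 9.05% and from 10.9% to 8.09%, the conventional CD4 share from 12.7% to 15.6% and from 9.29% to 11.9%. In the highest of 5 bins of gene expression UMIs (7083 or more per cell), the share in the 3 gates together was 17.1% (15.0 to 19.4) and 13.1% (11.2 to 15.1). The other bins were at 8.55% to 9.24% and 10.7% to 12.4%. From the lowest to the highest of these bins, the CD8 share went from 6.54% to 14.4% in the library labelled WT. It went from 10.6% to 9.83% in the library labelled VISTA-KO. The conventional CD4 share went from 10.6% to 22.3% and from 10.0% to 13.4%. The regulatory share went from 19.4% to 24.1% and from 14.8% to 26.2%. In the library labelled WT, CD8 clones with 38, 28 and 25 2-alpha cells had median depths of 12098, 9134 and 10515 UMIs. Other CD8 2-alpha clones of that library were shallower, among them the clone with 31 2-alpha cells at 4011. The part of these clones in the highest bin was not tested. Regulatory 2-alpha cells were the deepest of the 2-alpha cells. The medians in the regulatory gate were 6108 UMIs in 2-alpha and 5289 in 1-alpha cells of the library labelled WT and 6070 and 4895.5 in the library labelled VISTA-KO. With the same weights for the bins in every gate, the regulatory share was 19.0% and 16.9%.

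**Figure D2:**
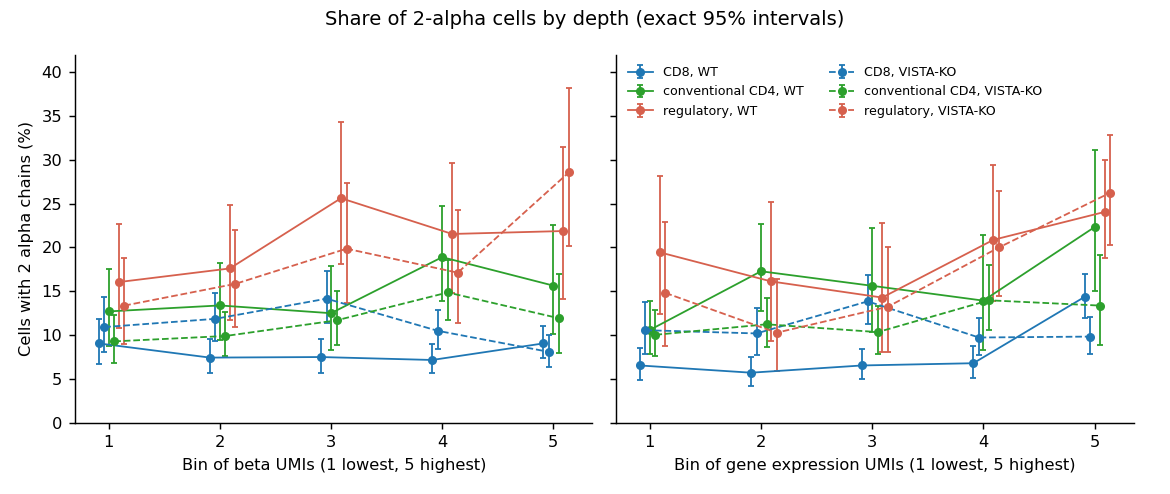
Share of 2-alpha cells (vertical axis, percent) in 5 bins of beta UMIs (left) and of gene expression UMIs (right), lowest to highest, for each gate and library, with exact 95% intervals. In the highest bin of gene expression UMIs the regulatory share is 24.1% in the library labelled WT and 26.2% in the library labelled VISTA-KO.

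A barcode that holds more than 1 cell can also show 2 alpha chains. Barcodes with UMIs of both Cd4 and Cd8a or Cd8b1 made up 4.92% (4.39 to 5.51) of 1-alpha and 8.46% (6.56 to 10.7) of 2-alpha cells in the library labelled WT, and 5.54% (4.98 to 6.14) and 8.79% (6.93 to 10.95) in the library labelled VISTA-KO. Barcodes with 2 beta and 2 alpha chains reached 35.4% (28.0 to 43.3) and 37.3% (31.2 to 43.8). In clones of 1 cell, such barcodes made up 8.602% of 2-alpha and 5.89% of 1-alpha cells in the library labelled WT, and 11.5% and 6.31% in the library labelled VISTA-KO. Free RNA can give a Cd4 or Cd8 UMI too, and deeper barcodes show more of it. The median depth was 4275.5, 4604 and 8486 UMIs in these 3 classes of the library labelled WT, and 4526, 4735.5 and 9234 in the library labelled VISTA-KO. Scrublet, a caller that scores each barcode against summed pairs of barcodes, marked 0 cells at its own threshold, so the highest 8% of its scores were used instead. They held 2.31% of 1-alpha, 3.22% of 2-alpha and 26.1% of 2-beta, 2-alpha cells in the library labelled WT, and 2.88%, 5.94% and 38.2% in the library labelled VISTA-KO. In clones of 1 cell they held 2.02% of 1-alpha and 5.73% of 2-alpha cells in the library labelled WT, and 3.02% and 6.97% in the library labelled VISTA-KO.

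By gate, the share among the highest scores was largest in regulatory 2-alpha cells of the library labelled VISTA-KO. There 16.5% of 2-alpha and 4.86% of 1-alpha cells were among the highest scores, against 3.05% and 2.88% in the library labelled WT. The summed level of Cd8a and Cd8b1 in regulatory cells was 279 CPM in 2-alpha and 72.7 CPM in 1-alpha cells of the library labelled VISTA-KO, and 142 and 103 CPM in the library labelled WT. Regulatory cells with a Cd8a or Cd8b1 UMI made up 28.1% of 2-alpha and 16.9% of 1-alpha cells of the library labelled VISTA-KO, and 30.5% and 23.8% of those of the library labelled WT. Without the highest scores and the cells with Cd4 and Cd8 UMIs, the regulatory share was 18.9% in the library labelled WT and 15.0% (12.2 to 18.1) in the library labelled VISTA-KO. In the latter the CD8 share was then 10.6% (9.52 to 11.7), and the conventional CD4 gate held 209 2-alpha and 1644 1-alpha cells. The lower limit of 12.2 for regulatory cells lies under 12.8, the upper limit of the conventional CD4 share before this step. By these 2 limits, which come from different sets of cells, the regulatory gate of that library no longer stood clearly apart from the conventional CD4 gate. Its interval after this step (12.2 to 18.1) still lay above that of the CD8 gate (9.52 to 11.7). The part of doublets in the remaining 2-alpha cells was not tested.

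Expanded clones gave a check that counts whole clones. Of clones with 10 or more 1-beta cells, the library labelled WT had 76 (3110 cells) and the library labelled VISTA-KO 71 (1727 cells). A 2-alpha clone was required to have 2 alpha chains that each recurred in at least 3 cells and 20% of the clone, and that occurred together in at least 2 cells. There were 14 in the library labelled WT (18.4% of clones, 10.5 to 29.0) and 10 in the library labelled VISTA-KO (14.1%, 6.97 to 24.4), with 344 and 200 cells. Most were CD8 clones, 8 of 54 and 7 of 45, while 4 of 12 and 3 of 24 were conventional CD4 clones and 1 of 7 and 0 of 1 regulatory clones. The remaining 1 was among 3 clones of the library labelled WT with most cells in no gate.

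The remaining expanded clones had almost no 2-alpha cell. The definition had moved out the clones with a recurrent pair of alpha chains, so a low share in the rest is in part built in. Second chains that did not recur stayed counted in the rest. In the library labelled WT, 0 of 2766 cells of the other 62 clones had 2 alpha chains, which allows a share of up to 0.108% (3 counts of the total, against an exact upper limit of 0.133%). In the library labelled VISTA-KO, 1 of 1527 cells of the other 61 clones had 2 (0.0655%, 0.00166 to 0.364). The 2 largest clones of the library labelled WT (1063 and 323 cells) and the 2 largest of the library labelled VISTA-KO (283 and 137 cells) each had 0 2-alpha cells. Between the 2-alpha clones and the rest lay 3 clones with 2 recurrent alpha chains that did not occur together, which were counted with the rest.

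**Figure D3:**
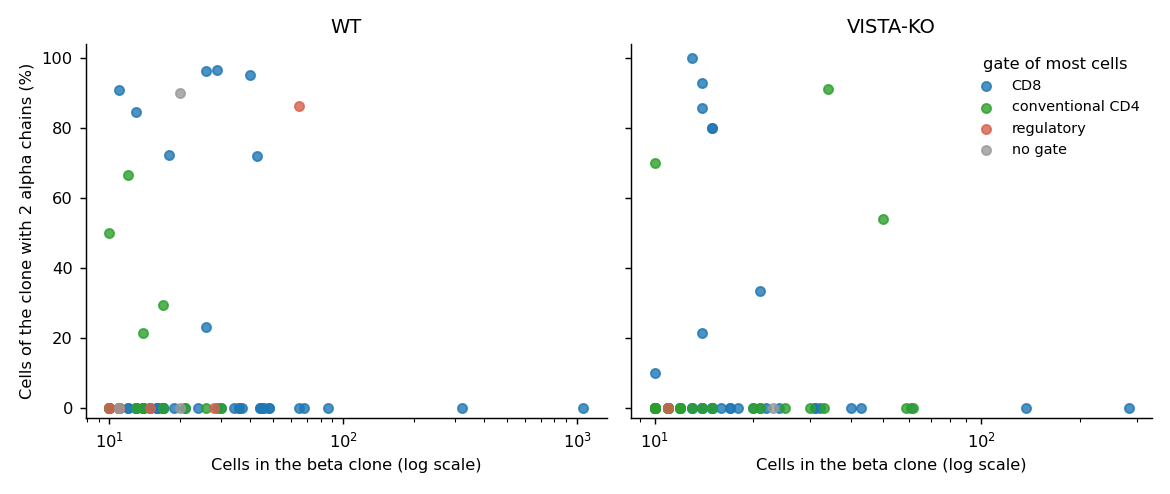
Percent of the cells of a beta clone with 2 alpha chains (vertical axis) against the number of cells of the clone (horizontal axis, log scale), for clones of 10 or more cells in the library labelled WT (left) and VISTA-KO (right), coloured by the gate of most of their cells. Most of the 147 clones lie at 0, and the 24 2-alpha clones lie between 21.4% and 100%.

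Within 2-alpha clones the second chain was not found in every cell. Both chains were found in 257 of 344 cells (74.7%, 69.8 to 79.2) of the library labelled WT and in 137 of 200 (68.5%, 61.6 to 74.9) of the library labelled VISTA-KO. A single one of the chains was found in 76 and 50 cells, and neither in 11 and 13. By clone the share with both chains ran from 21.4% to 96.6% with a median of 78.4% in the library labelled WT. In the library labelled VISTA-KO it ran from 21.4% to 100% with a median of 80.0%. The lowest clone of the library labelled WT, with 14 cells, had both chains in 3, alpha A alone in 2 and neither in 9. Those 9 cells carried another alpha chain. Of 23 clones with cells of a single chain, the cells with both chains had more gene expression UMIs in 18 and more beta UMIs in 16. The shares by gate above count cells in which both chains were found, so they leave out the cells of these 2-alpha clones with a single chain found. Barcodes that hold several cells can add to the same shares. The net direction over all gated cells was not tested.

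The clones whose junctions are printed above show the range. The regulatory clone of 65 cells had both chains in 56, alpha A alone in 5 and alpha B alone in 4, with medians of 10 and 9 UMIs for the chains in cells with both. The CD8 clones of 43 and 40 cells of the library labelled WT had both chains in 31 and 38 cells, at median beta UMI counts of 5 and 25. In the library labelled VISTA-KO, the conventional CD4 clone of 50 cells had both chains in 27 and alpha B alone in 17, at 4 UMIs for each chain, and that of 34 cells had both in 31. The CD8 clone of 21 cells differed from these, since 13 of its cells carried neither chain but another recurrent alpha chain beside the same beta junction.

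Chain levels were compared in the cells with both chains. Summed over these cells, alpha B had 0.409 to 1.33 times the UMIs of alpha A by clone, with a median of 0.813, and over 0.5 times in 22 of 24 clones. Cell by cell, alpha A was the higher in 236 cells, alpha B in 138, and 20 were tied. These ratios leave out cells in which 1 chain was not found, and alpha A alone was found in 84 cells against 42 for alpha B alone. In a CD8 clone of 26 cells of the library labelled WT, alpha B was found in 6 cells and alpha A alone in 20. Alpha A was chosen for its higher median over all cells of the clone that carried it, so an excess of alpha A over alpha B is in part built in.

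Over all 2-alpha cells, 400 distinct combinations of a beta chain and 2 alpha chains were found in the library labelled WT and 555 in the library labelled VISTA-KO. Those found in 2 or more cells (73 and 85) held 56.1% and 41.8% of 2-alpha cells. Of the 327 and 470 combinations found once, 39 and 49 shared the beta chain and an alpha chain with a 1-alpha cell. The invariant alpha chain of natural killer T cells, TRAV11 joined to TRAJ18, was found in 124 and 97 of the cells, of which 10 and 2 had a second alpha chain.

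The J segments of the 2 alpha chains lay near each other in the locus. On GRCm38 the 60 J segments of the annotation span chr14:54155005-54218814 from the start of the first to the start of the last (63.8 kb), upstream of the constant region Trac, whose start is at 54220521. They are numbered 1 to 61 against the direction of transcription, so that a high number lies upstream, next to the V segments. Over distinct pairs of alpha chains, the median distance was 8 segment numbers in the library labelled WT (396 pairs, quartiles 4 to 14) and 7 in the library labelled VISTA-KO (551 pairs, quartiles 3 to 13). The distance was at most 10 in 64.4% (59.5 to 69.1) and 64.8% (60.6 to 68.8) of pairs. The median gap of the 947 pairs together was 7.93 kb, and 45 pairs used the same J segment.

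Barcodes with 2 beta and 2 alpha chains differed in this measure. Their median distance was 13 in both libraries (155 and 225 pairs), and at most 10 in 43.2% (35.3 to 51.4) and 45.3% (38.7 to 52.1), with a median gap of 13.1 kb over the 380 pairs. The correlation between the J numbers of the pair, with each pair entered in both orders, was r = 0.588 (rho = 0.577) and r = 0.562 (rho = 0.567) in 2-alpha cells, against r = 0.226 (rho = 0.204) and r = -0.0677 (rho = -0.0471) in barcodes with 2 beta chains. These are descriptions across pairs from the same libraries, and pairs are not replicates. Single chains of both classes used J segments of like position, with median J numbers of 31 in 2-alpha cells of each library and 29 and 31 in barcodes with 2 beta chains. By gate the median distance of the 2-alpha pairs was 7 in CD8, 8 in conventional CD4 and 7 in regulatory cells, and 68.6% (63.3 to 73.5), 63.2% (57.1 to 69.0) and 60.8% (53.7 to 67.6) lay within 10.

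**Figure D4:**
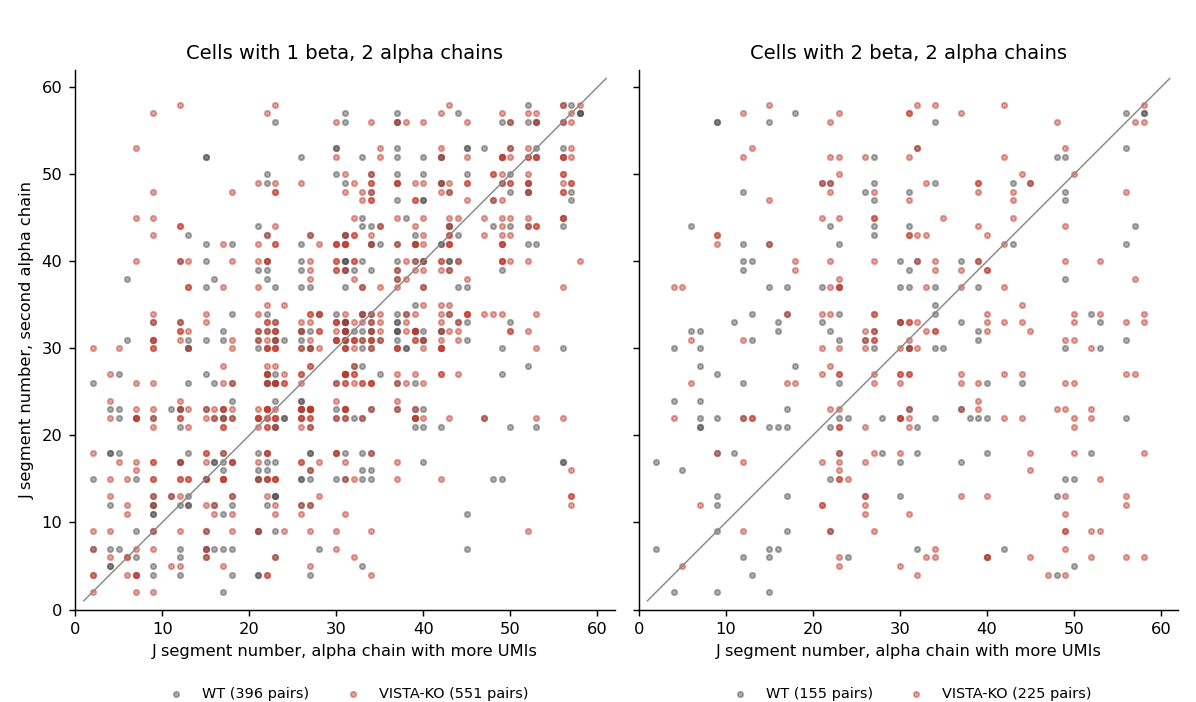
J segment number of the second alpha chain (vertical axis) against that of the alpha chain with more UMIs (horizontal axis), 1 point per distinct pair, in cells with 1 beta and 2 alpha chains (left) and in barcodes with 2 beta and 2 alpha chains (right). Points on the left gather along the diagonal (r = 0.573 over 947 pairs), those on the right do not (r = 0.0718 over 380 pairs).

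The V segments of a pair were of the same family in 8.84% (35 of 396) and 11.4% (63 of 551) of the distinct pairs. Transcripts of the recombination genes were near 0 in the tumor cells. Rag1, a subunit of the recombinase, had 0 UMIs in all 12 sums of 3 gates, 2 classes and 2 libraries. Rag2, its partner, had 1 UMI, in a CD8 1-alpha cell of the library labelled WT. For 0 of the 1338 gated 2-alpha cells this allows a share of up to 0.224% with a UMI (3 counts of the total), which limits cells with a UMI and not cells that transcribe the genes. Dntt, which adds bases at junctions, had UMIs in 2 of the 2-alpha cells, both regulatory cells of the library labelled VISTA-KO, and in 1 to 10 of the 1-alpha cells of each gate and library.

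Gene expression of 2-alpha and 1-alpha cells was compared within each gate on UMIs summed per library and class, with the library as a block. With 4 sums and 1 residual degree of freedom, the edgeR quasi-likelihood test measures only how the difference of the classes varies between the 2 libraries, and fewer transcribing cells cannot be told apart from less RNA per cell in a sum alone. Of 11383 genes tested in the CD8 gate, 0 were called (0%) at a Benjamini-Hochberg adjusted p under 0.05, and 949 (8.34%) had an unadjusted p under 0.05, while DESeq2 called 10. In the conventional CD4 gate 2 of 9772 genes were called (0.0205%), both lower in 2-alpha cells, and 392 (4.01%) had an unadjusted p under 0.05. In the regulatory gate 2 of 9760 were called (0.0205%), of which 1 was higher and 1 lower, and 478 (4.9%) had an unadjusted p under 0.05.

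In conventional CD4 cells the called genes were Ccl3 and Ccl4, chemokines that activated T cells and myeloid cells secrete. Ccl3 stood at 52.6 CPM in 2-alpha and 199.98 CPM in 1-alpha cells of the library labelled WT, and at 36.5 and 135 CPM in the library labelled VISTA-KO. It was lower in 2-alpha cells of both libraries, by a log2 fold change of -1.92 (edgeR adjusted p = 0.0014766). Ccl4 stood at 243 and 644 CPM, and at 85.8 and 448 CPM (log2 fold change -1.86, edgeR adjusted p = 0.015825). Few cells carried these UMIs. Ccl3 was found in 7.14% of 2-alpha and 7.71% of 1-alpha cells of the library labelled WT, and in 6.91% and 6.30% of the library labelled VISTA-KO, at median depths of 3888.5 and 3562 UMIs and of 4239.5 and 4128.5 UMIs. The share of cells with a Ccl3 UMI thus differed little between the classes, and no cell type that lacks the gene was at hand as a background. The 3 highest 1-alpha cells held 40.3% of Ccl3 UMIs in the library labelled WT and 45.7% in the library labelled VISTA-KO, and for Ccl4 43.6% and 24.4%. The 7 macrophage markers together stood at 32.4 CPM in 2-alpha and 32.3 CPM in 1-alpha conventional CD4 cells of the library labelled WT, and at 14.4 and 141 CPM in the library labelled VISTA-KO, where Adgre1 and Csf1r were at 0 in 2-alpha cells. Their part in the Ccl3 and Ccl4 levels of that library was not tested. The Ccl4 call was lost with 1 cell per clone and with DESeq2, and both calls without the library block. In the regulatory gate the same genes were at log2 fold changes of -1.24 (adjusted p = 0.098605 by edgeR) and -1.19 (adjusted p = 0.14447 by edgeR), and in the CD8 gate at 0.57 and 0.21, without a call.

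The other cytotoxic effector genes of conventional CD4 cells did not pass the test. All 11 members tested of the 12 listed, Ccl3 and Ccl4 included, had lower fitted levels in 2-alpha cells, with a median log2 fold change of -0.36 beside -0.00523 over all genes tested. The median was -0.0846 in the library labelled WT and -0.509 in the library labelled VISTA-KO, with 6 of 11 members on the same side of 0 in both, and -0.139 with 1 cell per clone. Of the 11, 7 had an unadjusted p under 0.05 against 4.01% of all genes. Gzmb, a granule protease, stood at 224 and 237 CPM in 2-alpha and 1-alpha cells of the library labelled WT and at 129 and 322 CPM in the library labelled VISTA-KO. Nkg7, a granule membrane protein, was at 1226 and 1378 CPM, and at 1016 and 1399 CPM. For Gzmb the gap lay in the library labelled VISTA-KO. Lag3, an inhibitory receptor that binds MHC class II, was at 43.1 and 108 CPM and at 31.4 and 52.7 CPM (log2 fold change -1.05, edgeR adjusted p = 0.186). In the same gate Cd8a and Cd8b1 together, genes of another lineage, stood at 270 CPM in 2-alpha and 514 CPM in 1-alpha cells of the library labelled WT and at 207 and 162 CPM in the library labelled VISTA-KO, and their part in these values was not tested.

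In regulatory cells Rln3, which encodes a relaxin family peptide, was lower in 2-alpha cells, at 36.7 CPM against 152 CPM in 1-alpha cells of the library labelled WT and at 61.4 against 152 CPM in the library labelled VISTA-KO (log2 fold change -1.62, edgeR adjusted p = 0.049227). Rln3 UMIs were found in 9.92% of 2-alpha and 20.2% of 1-alpha regulatory cells of the library labelled WT and in 17.99% and 17.6% of the library labelled VISTA-KO. They were found in at most 2.03% of conventional CD4 cells, whose median depth was 3562 to 4239.5 UMIs against 4895.5 to 6108. In the CD8 gate they were found in 4.69% of 2-alpha and 0.434% of 1-alpha cells of the library labelled WT, and in 2.01% and 0.657% of the library labelled VISTA-KO. The level there was higher in 2-alpha cells, at 15.4 against 2.82 CPM and at 7.80 against 2.23 CPM. Of these CD8 2-alpha UMIs, 1 cell held 37.8% and 61.1%. The Rln3 call was lost with DESeq2 size factors and without the library block. Of the 131 regulatory 2-alpha cells of the library labelled WT, 41 were of 1 clone, which weighs in every sum of that class. With 1 cell per clone the log2 fold change of Rln3 was -1.27. The other called gene was Trbv17, a beta V segment, at 67.9 and 15.3 CPM and at 128 and 32.0 CPM in 2-alpha and 1-alpha cells (log2 fold change 2.08, edgeR adjusted p = 0.002155). Receptor segments are read apart, since receptor contigs chose the classes. A TRBV17 beta contig was found in 3 of 131 2-alpha and 3 of 520 1-alpha regulatory cells of the library labelled WT, and in 4 of 139 and 11 of 638 of the library labelled VISTA-KO.

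The regulatory T cell genes themselves were not called between classes in regulatory cells. All 12 had lower fitted levels in 2-alpha cells, with a median log2 fold change of -0.249 beside -0.000515 over all genes. Of the 12, 6 had an unadjusted p under 0.05, against 4.9% of all genes tested. On the same side of 0 in both libraries were 9 of the 12. Foxp3 was at 616 CPM in 2-alpha and 727 CPM in 1-alpha cells of the library labelled WT, and at 644 and 796 CPM in the library labelled VISTA-KO. Foxp3, 1 of the 12, also set the gate, so its level in these cells was in part fixed by that choice. The 1-alpha cells were the shallower class, at medians of 5289 and 4895.5 UMIs against 6108 and 6070. Il2ra, the high-affinity interleukin-2 receptor chain, was at 128 and 235 CPM, and at 203 and 249 CPM. Il10, a suppressive cytokine, was at 6.42 and 27.6 CPM, and at 4.87 and 38.3 CPM (log2 fold change -2.49, edgeR adjusted p = 0.0986). With doublets left out, the median of the list was -0.021.

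Cell cycle genes had higher fitted levels in 2-alpha regulatory cells, again without a call. All 10 were above 0, with a median log2 fold change of 0.418. Of the 10, 7 had an unadjusted p under 0.05, against 4.9% of all genes tested, and 8 were above 0 or below 0 in both libraries alike. With doublets left out, the median was 0.185. Birc5, a mitotic regulator, was at 157 and 125 CPM in 2-alpha and 1-alpha cells of the library labelled WT, and at 119 and 48.0 CPM in the library labelled VISTA-KO. Tubb5, a tubulin, was at 891 and 718 CPM, and at 675 and 504 CPM. The same list in the CD8 gate had 10 of 10 genes above 0 with a median of 0.362, which became -0.0025 when cells were thinned to 2000 UMIs. There 8 of the 10 were on the same side of 0 in both libraries.

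**Figure D5:**
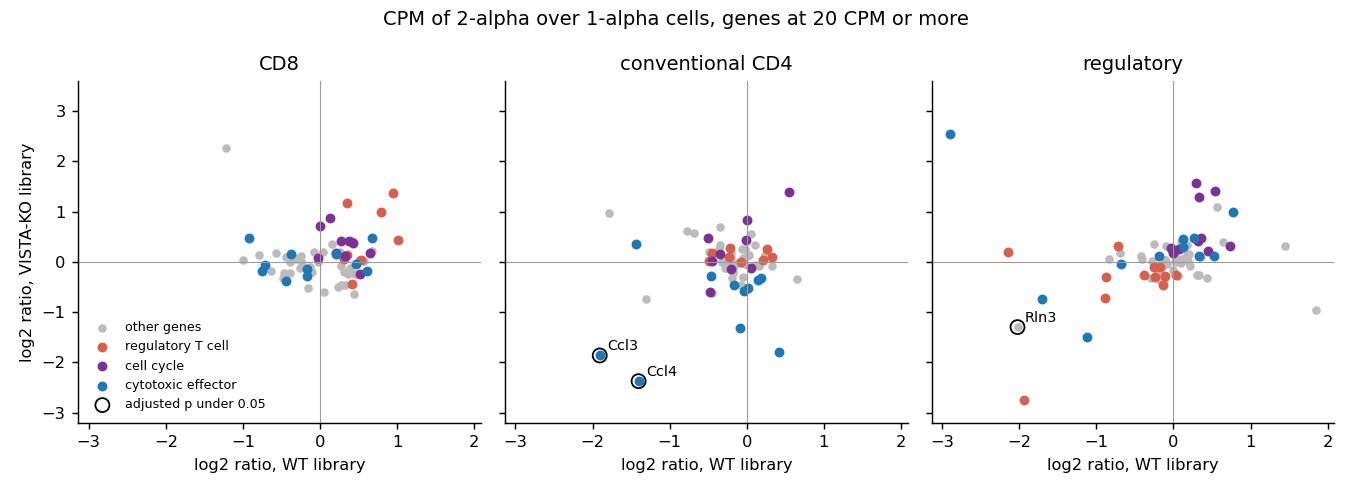
log2 ratio of CPM in 2-alpha over 1-alpha cells in the library labelled VISTA-KO (vertical axis) against the library labelled WT (horizontal axis), 1 point per gene of the lists with at least 20 CPM in a sum and per called gene that is no receptor segment, by gate. Ccl3 and Ccl4 in conventional CD4 cells and Rln3 in regulatory cells (circled) passed the edgeR test and lie below 0 in both libraries.

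In the CD8 gate, regulatory T cell genes had higher fitted levels in 2-alpha cells. All 12 were above 0, with a median log2 fold change of 0.453 beside -0.00519 over all genes, and 0 were called. Of the 12, 5 had an unadjusted p under 0.05, against 8.34% of all genes tested. On the same side of 0 in both libraries were 9 of the 12. Foxp3 was at 31.2 and 15.7 CPM in 2-alpha and 1-alpha cells of the library labelled WT, and at 29.0 and 10.6 CPM in the library labelled VISTA-KO, far under its 616 to 796 CPM in regulatory cells. Tnfrsf4, the costimulatory receptor OX40, was at 155 and 89.4 CPM, and at 120 and 59.6 CPM (log2 fold change 0.89, edgeR adjusted p = 0.307). Ikzf2, the factor Helios, was at 138 and 67.8 CPM, and at 88.9 and 65.1 CPM. Without the largest beta clone of each library the median of the list was 0.192. The 2-alpha cells of this gate, 320 and 348, came from 138 and 209 beta clones. Large 2-alpha clones thus weigh in these sums, among them those with 38, 31, 28 and 25 2-alpha cells in the library labelled WT. Few CD8-gate cells carried Foxp3 UMIs, 8.44% of 2-alpha and 2.91% of 1-alpha cells of the library labelled WT. In the library labelled VISTA-KO they were 5.46% and 2.66%. Of the regulatory clone of 65 cells, 6 cells lay in the CD8 gate, 5 of them 2-alpha. The part of regulatory cells under the CD8 gate in these values was not tested.

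The receptor constant region did not pass the test in any gate. Trac, the alpha constant region, was at 362 CPM in 2-alpha and 280 CPM in 1-alpha CD8 cells of the library labelled WT, and at 357 and 322 CPM in the library labelled VISTA-KO. In conventional CD4 cells it was at 395 and 319 CPM and at 337 and 292 CPM, and in regulatory cells at 378 and 293 CPM and at 381 and 375 CPM. The value of 2-alpha cells was above that of 1-alpha cells in each of the 6 pairs. The log2 fold changes of Trac were 0.25, 0.24 and 0.22 by gate, and none passed the test (edgeR adjusted p = 0.621, 0.993 and 0.937). The beta constant regions Trbc1 and Trbc2 together were also higher in 2-alpha cells in each of the 6 pairs. They were at 318 and 294 CPM and at 453 and 428 CPM in CD8 cells. In conventional CD4 cells they were at 293 and 266 CPM and at 356 and 329 CPM. In regulatory cells they were at 218 and 182 CPM and at 375 and 277 CPM. The TCR complex list, 7 of 8 members tested, had medians of -0.133, 0.0762 and 0.220 in the CD8, conventional CD4 and regulatory gates. Trac, Trbc1 and Trbc2 are among its members, and receptor contigs chose the classes, so their levels are not free of that choice. The conventional CD4 median was the value of Trbc2 and the regulatory median that of Trac. In the regulatory gate Cd3d, Cd3e, Cd3g and Cd247 were at 0.045, 0.091, 0.067 and 0.255.

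The remaining lists described here held no called gene. In the CD8 gate the medians were 0.110 for genes of the TCR signal response, 0.0173 for naive and memory genes, 0.161 for thymic emigrant and maturation genes, -0.0855 for inhibitory receptors and exhaustion, -0.195 for cytotoxic effectors and 0.472 for innate-like T cell genes. In the conventional CD4 gate they were 0.0330, 0.0119, 0.0285 and -0.166 for the first 4 of these lists and -0.124 for innate-like T cell genes, and those of the regulatory T cell and cell cycle lists were 0.0598 and 0.0196. In the regulatory gate the first 4 were -0.102, 0.149, -0.0538 and 0.00226, and the last 2 were 0.256 and 0.178. Of the 27 list medians of these 3 gates, 19 changed sign in at least 1 of 4 alternative cell sets and 13 differed in sign between the 2 libraries. With doublets left out, the cytotoxic effector median of the regulatory gate was -0.281 and the innate-like median of the CD8 gate -0.0849.

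Macrophage markers stood at 102 and 83.1 CPM in 2-alpha and 1-alpha CD8 cells of the library labelled WT and at 88.4 and 83.4 CPM in the library labelled VISTA-KO. Melanoma markers reached 1198 CPM in CD8 2-alpha cells of the library labelled VISTA-KO against 157 CPM in 1-alpha cells, and without the 1 cell with the most of them the level of the 2-alpha cells was 0.867 CPM.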

How the data were processed

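Cell barcodes with UMI counts per gene and contigs with UMI and read counts were deposited as the authors' Cell Ranger output on the mouse reference mm10 (GRCm38), unnormalized, with 1 pooled gene expression and 1 receptor library per genotype. Cells were joined to contigs by barcode within a genotype and kept with at least 600 genes and under 30% mitochondrial UMIs. Members and gene lists were chosen with earlier results of these data known. UMIs were summed per library, gate and class and tested with edgeR 4.0.16 (TMM, filterByExpr, glmQLFit, glmQLFTest, library as block) with Benjamini-Hochberg adjustment over all genes tested, and with DESeq2 1.42.0 as an alternative, in R 4.3.3. The script was tested on simulated data. Scrublet ran through scanpy 1.11.5. J positions came from the RefSeq table of GRCm38.p6. Named were list genes with at least 20 CPM in a sum of the gate, the 5 highest and 5 lowest called genes per gate with the same direction in both libraries, and the 3 largest 2-alpha clones per library. Alternatives covered clones, gates, chain thresholds, depth and doublets, and left out each library. Columns of authors' comparisons were not used. A gene list and a marker list are not reported here.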

Additional observations from a re-analysis of the deposited data

Results flagged for a closer look

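The share of 2-alpha cells differed between the libraries in opposite directions by gate. It was 2.75 percentage points higher in the library labelled VISTA-KO than in the library labelled WT in the CD8 gate, and differed by -3.14 and -2.23 points in the conventional CD4 and regulatory gates. With 1 library per genotype these differences were not tested. Without the largest beta clone of each library the CD8 shares were 10.8% and 11.8%, and without the largest 2-alpha clone the regulatory shares were 14.8% and 17.8%, in the libraries labelled WT and VISTA-KO.

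Some gene lists had medians on opposite sides of 0 in the 2 libraries. The median log2 ratio of 2-alpha over 1-alpha cells in the library labelled VISTA-KO minus that in the library labelled WT was -0.77 for inhibitory receptors and exhaustion and 0.53 for innate-like T cell genes in the CD8 gate. It was 0.47 for naive and memory genes, 0.39 for cell cycle genes and 0.77 for innate-like T cell genes in the conventional CD4 gate, and -1.32 for innate-like T cell genes in the regulatory gate. These differences were not tested.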

How the results depend on the processing

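Of 96 alternative values for the 6 shares by gate, 79 stayed inside the main interval. Outside it, the CD8 share of the library labelled WT was 12.4% and 13.6% with each clonotype counted once (mean share, any cell), 13.0% in clones of 1 cell, 10.8% without the largest beta clone, 6.94% with 3 or more UMIs for the second chain and 6.56% at 3000 to 8000 UMIs. That of the library labelled VISTA-KO was 13.1%, 14.4% and 12.2% for the first 3 of these, 9.54% with 3 or more UMIs and 9.69% with cells without an alpha chain in the denominator. The conventional CD4 share was 12.0% and 9.28% with 3 or more UMIs, and 12.9% with any cell in the library labelled VISTA-KO. The regulatory share was 15.4% in clones of 1 cell and 14.8% without the largest 2-alpha clone in the library labelled WT, and 15.0% with doublets left out in the library labelled VISTA-KO. Clones of 1 cell, bins of gene expression UMIs, and leaving out the largest 2-alpha clone were added after seeing the data, as were 2 cell sets for the lists. The share of cells with both chains in 2-alpha clones of the library labelled WT was 81.6% when a recurrent chain needed 30% of the clone. J distances and numbers of 2-alpha clones stayed within their limits under every alternative run.

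Counts of called genes depended on the setting. In the CD8, conventional CD4 and regulatory gates they were 75, 22 and 11 with 1 cell per clone, 47, 20 and 13 with cells thinned to 2000 UMIs, 35, 58 and 55 with doublets left out, 59, 22 and 2 without the largest clone, 185, 106 and 63 with no filter on low counts, 10, 2 and 2 with DESeq2, and 0, 0 and 0 with no library block. With DESeq2 size factors 1 gene was called in the regulatory gate. Of the genes called in the main fit, Ccl3 in conventional CD4 cells and Rln3 and Trbv17 in regulatory cells were called in all 4 alternative cell sets. Ccl4 in conventional CD4 cells was called in 3, with an edgeR adjusted p of 0.063698 with 1 cell per clone. Genes not called in the main fit were called in all 4 sets too. In the CD8 gate these were H2-Aa, H2-Eb1, Spp1, Tnfrsf4, Xcl1 and the segment Trav14d-3-dv8, all higher in 2-alpha cells. In conventional CD4 cells they were the segments Trav13-2 and Trbv1. The 4 sets were drawn from the same cells, and the spread of these genes over single cells was not examined. In the CD8 gate Pmel, a melanoma marker, was called in 3 of the sets. Of the melanoma marker UMIs of CD8 2-alpha cells in the library labelled VISTA-KO, 1 cell held 99.9%. Trav14d-3-dv8 is also the V segment of alpha B in the clone of 40 cells of the library labelled WT. Ccl3 and Ccl4 in regulatory cells were each called in 3. The set without the largest clone left the 2-alpha cells of the conventional CD4 and regulatory gates unchanged. Of the 1-alpha cells it kept 518 of 520 and 638 of 638 in the regulatory gate. In the conventional CD4 gate it kept 883 of 908 and 1919 of 1920, so a call in that set adds little to the main fit. The median log2 fold change over every list gene was -0.0195 without the largest clone in the CD8 gate and -0.0162 with thinned cells in the regulatory gate, and leaving out a library gave 0.0127 to 0.054 there. Leaving out a library leaves no test. Il17a, not called, was at 0.89 in conventional CD4 cells and -2.18 with 1 cell per clone, and at -0.058 in regulatory cells and 2.85 with doublets left out. The cause was not tested. No paired analysis was possible because the genotypes share fewer than 2 replicate numbers. This concerns the genotypes alone, since the classes were compared within libraries by the library block.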
